A study of Mus musculus with 16 samples.

Results

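Transcripts of the FGF-ERK pathway and of its feedback inhibitors were measured in mouse embryonic stem (ES) cells with and without the chromatin protein Cfp1, before and after DNA damage. The genes described are Fgf4, Fgfr1, Dusp4, Dusp6, Spry2, Spry4, Spred1, Spred2, Etv4 and Etv5. They are 10 of the 22375 genes in the deposited count tables and were chosen by name, with earlier results of these data known. Shares and medians of these genes are therefore set beside those of all genes as description only. All 10 passed the filter on low counts. ES cells grow from the inner cell mass of the early embryo, and they secrete the ligand Fgf4, which acts on receptors such as Fgfr1 on the same cells. The receptor starts a cascade from Ras through Raf and MEK to the kinase ERK, and in ES cells ERK activity is known for promoting exit from the naive state. ERK in turn raises the transcription of genes that hold the cascade back, among them the phosphatases Dusp4 and Dusp6, the Sprouty proteins and the Spred proteins, and of the ETS factors Etv4 and Etv5, so transcripts of these genes are widely used as a readout of ERK activity.

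The 4 groups compared were WT ES cells and Cfp1-/- ES cells, each untreated or exposed to doxorubicin for 6 hours. Each group had 2 biological replicates, each sequenced as 2 technical replicates (16 samples in all), and the latter were summed, so n = 2 throughout. Both lines are of strain 129/OLA, and they were cultured without feeder cells in medium containing foetal bovine serum and leukaemia inhibitory factor. The WT cells are of the E14TG2a line, and the Cfp1-/- cells are a line made earlier, so that the loss of Cfp1 and any other difference between these lines cannot be told apart. Cfp1 binds DNA at unmethylated CpG dinucleotides and brings the Set1 complex, which methylates lysine 4 of histone H3, to promoters. Doxorubicin is a topoisomerase poison that breaks DNA and activates p53. Its dose was 1 μM by the treatment protocol, although the sample labels themselves read 1 mM.

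Because Cfp1 recognises CpG dinucleotides, the stretch of 250 bases before the transcription start is shown for Fgf4, Dusp6, Spry2 and Spred1, with each CG in capitals. Of the members, 6 had an entry in the RefSeq promoter table used (GRCm38.p6). The windows, read 5′ to 3′ on the gene's own strand, were chr7:144861136-144861385 (plus strand) for Fgf4, chr10:99262981-99263230 (plus) for Dusp6, chr14:105896820-105897069 (minus) for Spry2 and chr2:117120821-117121070 (plus) for Spred1.
Fgf4: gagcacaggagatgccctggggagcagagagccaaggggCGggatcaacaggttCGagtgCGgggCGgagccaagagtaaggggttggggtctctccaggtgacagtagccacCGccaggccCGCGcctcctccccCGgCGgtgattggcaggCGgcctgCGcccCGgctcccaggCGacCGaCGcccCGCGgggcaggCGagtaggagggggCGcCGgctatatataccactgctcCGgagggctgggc
Dusp6: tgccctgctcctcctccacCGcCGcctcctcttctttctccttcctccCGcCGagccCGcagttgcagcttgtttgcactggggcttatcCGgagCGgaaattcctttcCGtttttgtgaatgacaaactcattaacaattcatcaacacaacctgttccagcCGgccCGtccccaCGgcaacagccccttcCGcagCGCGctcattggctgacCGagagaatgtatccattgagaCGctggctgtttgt
Spry2: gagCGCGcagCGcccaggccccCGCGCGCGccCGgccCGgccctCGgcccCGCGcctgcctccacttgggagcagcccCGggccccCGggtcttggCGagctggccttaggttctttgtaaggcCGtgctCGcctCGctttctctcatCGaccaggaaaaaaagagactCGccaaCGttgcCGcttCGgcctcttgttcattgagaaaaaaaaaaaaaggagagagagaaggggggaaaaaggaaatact
Spred1: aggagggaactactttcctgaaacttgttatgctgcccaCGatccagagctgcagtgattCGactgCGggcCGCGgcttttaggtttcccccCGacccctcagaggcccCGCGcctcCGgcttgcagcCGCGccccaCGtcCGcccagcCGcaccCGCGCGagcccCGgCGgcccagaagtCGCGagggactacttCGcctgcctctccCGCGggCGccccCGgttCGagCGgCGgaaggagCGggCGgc
The search counted the letters CG, which read the same on both strands. Fgf4 held 21 of them, Dusp6 16, Spry2 23 and Spred1 31. Over all 32841 promoter windows of this length in the table the median was 6, and 16.4% of windows held at least as many as that of Fgf4, 25.4% as that of Dusp6, 13.3% as that of Spry2 and 5.19% as that of Spred1. Each of these windows is therefore richer in CpG than the median window. Any relation between CpG content and the differences between the lines was not tested.

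Total counts per biological replicate ranged from 14880589 to 29422711. Cxxc1, the gene that encodes Cfp1, had 616 to 1412 raw counts in the WT libraries and 1 to 5 in the Cfp1-/- libraries. The cells carried the defining transcripts of ES cells, with the 8 naive markers found in the tables summing to between 40916 and 63616 normalized counts in untreated cells of both lines. In treated cells these markers summed to between 16854 and 24557. By the test used for the members 7 of the 8 fell in either line, beside 21.8% of all genes in WT and 21.0% in Cfp1-/- cells. Pou5f1 passed narrowly (edgeR adjusted p = 0.0435 and 0.0462). DESeq2 did not call Klf4 (adjusted p = 0.0687 in WT and 0.0727 in Cfp1-/- cells) or Esrrb (0.0601 and 0.0513). Markers of primitive endoderm, mesoderm, trophoblast and fibroblasts summed to at most 685 normalized counts in any library. Those of primed epiblast ran from 4298 to 24971 and neural markers from 519 to 4402, and 3 of 4 and 2 of 3 of them fell in WT cells. Fibroblast markers summed to between 159 and 170 normalized counts in untreated and between 322 and 473 in treated WT cells, and to between 50.7 and 59.3 and between 284 and 336 in Cfp1-/- cells, and 2 of 3 (Col1a1 and Thy1) rose in both lines. Primitive endoderm markers summed to between 194 and 255 in untreated and between 361 and 376 in treated WT cells. In Cfp1-/- cells they summed to between 365 and 536 and between 567 and 685. Of the 6, Pdgfra rose in WT cells and 3 (Gata4, Sox17 and Pdgfra) in Cfp1-/- cells. Gata4 and Sox17 had 2 to 7 raw counts per untreated library there and were not called by DESeq2 (adjusted p = 0.0844 and 0.134). Sox7 (log2 fold change -1.54, edgeR adjusted p = 0.0557) and Dab2 (-1.17, edgeR adjusted p = 0.0852) went lower there without passing. With replicate number as a blocking factor both were called lower, and Gata4 and Sox17 higher. The part of these markers in the members' results was not tested. The second sequencing run of replicate 1 of treated Cfp1-/- cells listed 0 counts for 439 of the 576 genes on chromosomes 19, X and Y that had at least 200 counts in its first run. None of the members lies on these chromosomes. Without that run 7 members were called for the drug in each line and 7 between the lines in each condition. Spry4 and Etv5 were thereby added to the 5 called between the treated lines. No share of all genes was computed for that fit. The technical replicates of replicate 1 of treated WT cells also disagreed (chi-square over degrees of freedom 9.61). The only fit that left out 1 of them used first runs alone, and so left out the second run of every library. In these bulk RNA samples, fewer cells that express a gene and less RNA per cell cannot be told apart. Nothing states that the replicates came from separate cultures beyond their description as biological, and p-values measure the spread between them.

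Doxorubicin lowered most of the feedback genes in both lines. In WT cells 6 of the 10 members fell and 1 rose at an adjusted p-value under 0.05 (quasi-likelihood test of edgeR, Benjamini-Hochberg adjusted over the 15758 genes tested), against 21.8% of all genes tested that fell and 26.5% that rose. In Cfp1-/- cells 6 members fell and 1 rose, against 21.0% and 27.8%. The genes that fell in either line were Dusp4, Spry2, Spry4, Spred1 and Etv5, joined by Fgf4 in WT cells and by Dusp6 in Cfp1-/- cells, and the gene that rose was Fgfr1. The median log2 fold change of the members was -1.21 in WT cells and -0.93 in Cfp1-/- cells, beside 0.06 and 0.01 over all genes tested. Taken from replicates 1 and 2 separately, this median was -1.24 and -0.95 in WT and -0.79 and -1.07 in Cfp1-/- cells. When a fold of 2.5 or more and an average above or equal to 200 normalized counts were also asked for, 4 members were called in WT cells and 2 in Cfp1-/- cells, where 7.91% and 7.61% of all genes were. Scaling by total counts shifted the median of all genes by 0.31 in WT cells and 0.21 in Cfp1-/- cells, and the members' medians were then -0.89 and -0.71.

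**Figure D1:**
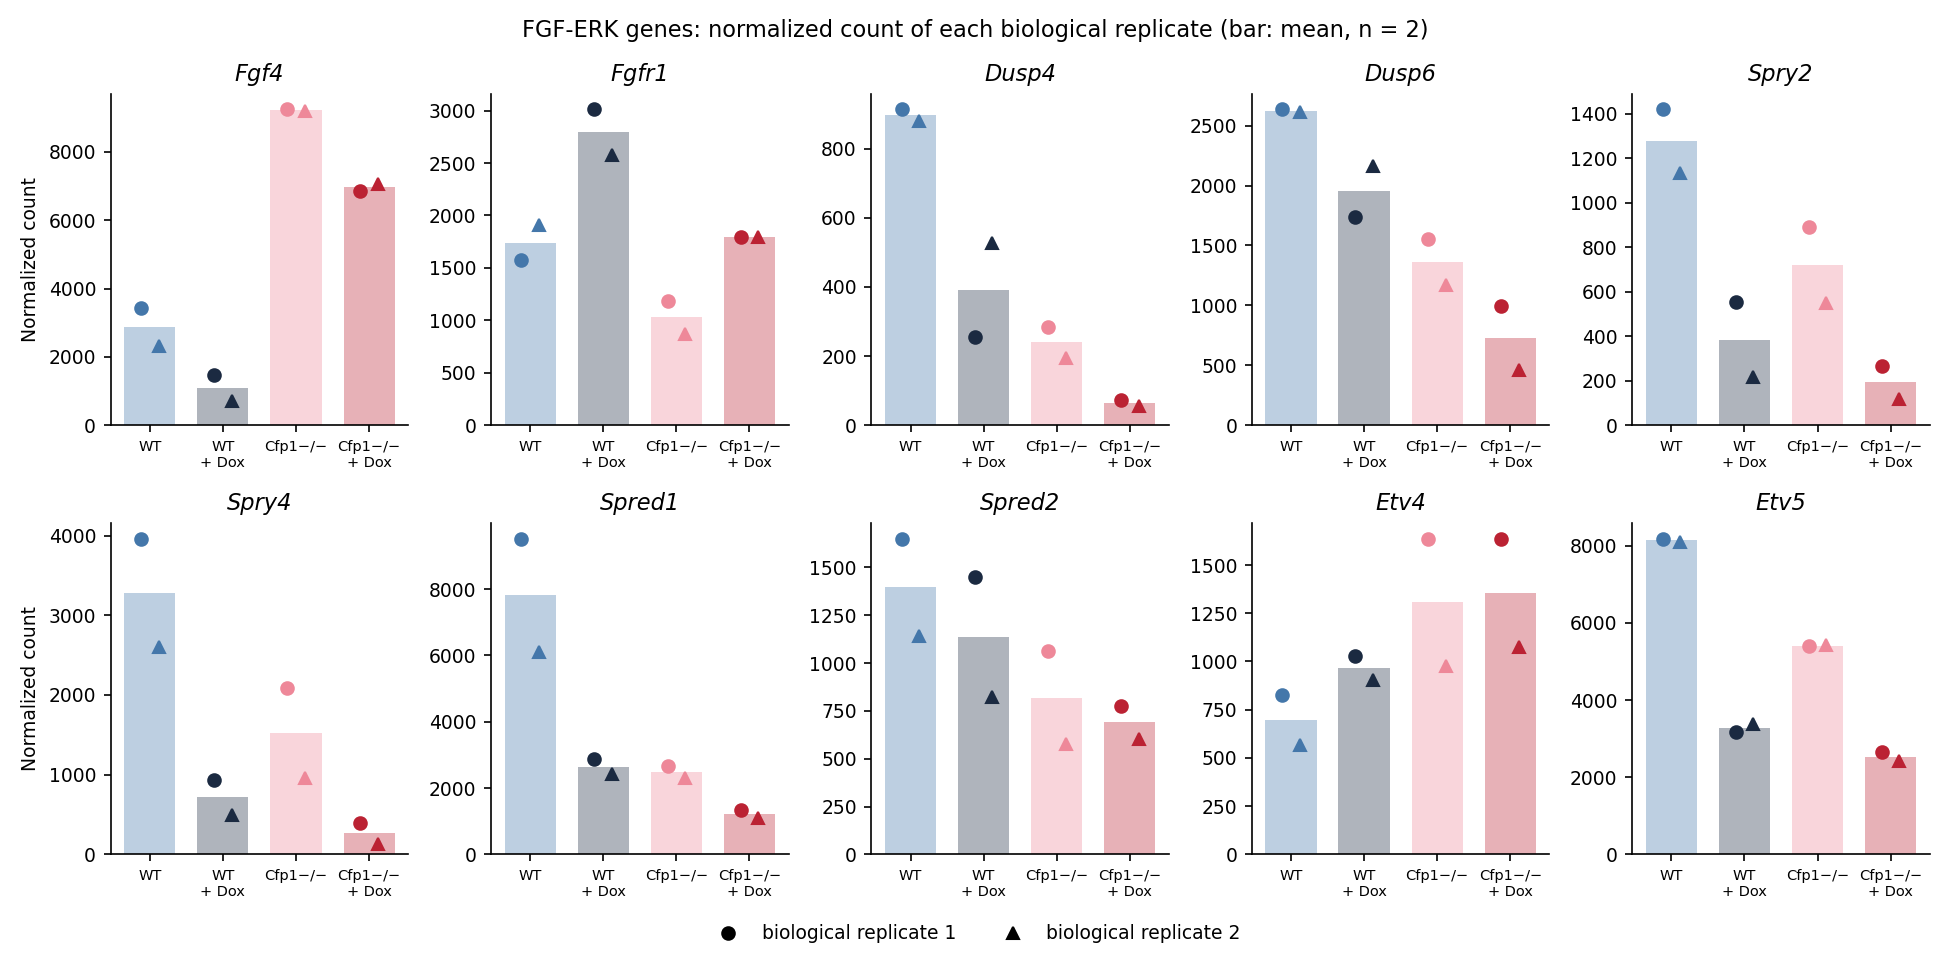
Normalized count of each of the 10 genes (vertical axis, from 0, own scale per gene) in the 4 groups (horizontal axis). Circles are biological replicate 1, triangles biological replicate 2 and bars their mean (n = 2). Fgf4 is highest in the Cfp1-/- groups, with all 4 libraries at 6859 or above, whereas the counts of Spry4 run down to 131 in treated Cfp1-/- cells.

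Spry4 and Spry2 encode Sprouty proteins, intracellular inhibitors that act between the receptor and Ras or Raf. Spry4 (ENSMUSG00000024427) had 3962.5 and 2606 normalized counts in the 2 untreated WT replicates and 930.0 and 498.5 in the treated ones. In Cfp1-/- cells it had 2089.6 and 963 without and 397 and 131 with doxorubicin. Treated libraries lay below untreated libraries in both lines without overlap. Counted in either direction, the groups were apart for 9 members in WT and 8 in Cfp1-/- cells, and for 73.5% and 77.5% of all genes. Spry4 fell 4.47-fold in WT cells (log2 fold change -2.16, standard error (SE) 0.52, edgeR adjusted p = 0.00717) and 5.62-fold in Cfp1-/- cells (-2.49, SE 0.54, edgeR adjusted p = 0.00404), the largest drop of any member in either line. The value in Cfp1-/- cells depended on single libraries, at -1.84 without replicate 1 of untreated, -3.52 without replicate 1 of treated and -1.90 without replicate 2 of treated Cfp1-/- cells, each of which kept the call. Spry2 (ENSMUSG00000022114) had 1420.2 and 1133 normalized counts in untreated WT cells, 551.5 and 215.5 in treated WT cells, 891 and 551 in untreated Cfp1-/- cells and 266.5 and 118 in treated Cfp1-/- cells. It fell by 1.70 on the log2 scale in WT cells (SE 0.46, edgeR adjusted p = 0.0131) and by 1.87 in Cfp1-/- cells (SE 0.47, edgeR adjusted p = 0.00914). The call for Spry2 in WT cells was lost without replicate 2 of treated WT cells (log2 fold change -1.17, edgeR adjusted p = 0.0593), and the change was -2.53 without replicate 1. In Cfp1-/- cells it was lost without replicate 1 of untreated (-1.49, adjusted p = 0.0566) or replicate 2 of treated Cfp1-/- cells (-1.39, adjusted p = 0.0772), and the change was -2.59 without replicate 1 of the latter.

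Spred1 and Spred2 encode membrane-bound relatives of the Sproutys that recruit the Ras inhibitor neurofibromin. Spred1 (ENSMUSG00000027351) had 9523 and 6107 normalized counts in untreated WT cells and 2870.0 and 2426 after doxorubicin. The Cfp1-/- replicates had 2678 and 2300.4 without the drug and 1328 and 1105 with it. The untreated Cfp1-/- level was thus within the range of the treated WT level or just below it, and treated Cfp1-/- cells were lowest. Spred1 fell 2.86-fold in WT cells (log2 fold change -1.52, SE 0.21, edgeR adjusted p = 0.00035) and 1.99-fold in Cfp1-/- cells (-0.99, SE 0.21, edgeR adjusted p = 0.00386). Spred2 (ENSMUSG00000045671) had 1650.4 and 1144 normalized counts in untreated and 1447.5 and 822 in treated WT cells, and 1061.5 and 576 in untreated and 776 and 602.5 in treated Cfp1-/- cells. Its treated and untreated libraries overlapped in both lines. The log2 fold change of Spred2 was -0.26 (SE 0.34, edgeR adjusted p = 0.557) in WT cells and -0.21 (SE 0.34, edgeR adjusted p = 0.643) in Cfp1-/- cells, neither of which passed the test, and both turned positive under total count scaling (0.06 and 0.01).

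Dusp4 and Dusp6 encode phosphatases that inactivate ERK, Dusp4 in the nucleus and Dusp6 in the cytoplasm. Dusp4 (ENSMUSG00000031530) had 915 and 881 normalized counts in untreated WT cells, 255 and 528 in treated WT cells, 285.5 and 195 in untreated Cfp1-/- cells and 71.5 and 54.9 in treated Cfp1-/- cells. The groups with and without the drug were apart in both lines, although the treated WT replicates differed 2.07-fold from each other. Dusp4 fell by 1.15 on the log2 scale in WT cells (SE 0.32, edgeR adjusted p = 0.0146) and by 1.88 in Cfp1-/- cells (SE 0.35, edgeR adjusted p = 0.00193). The call in WT cells was lost without replicate 1 of treated WT cells (log2 fold change -0.72, adjusted p = 0.0665) and under total count scaling (-0.83, adjusted p = 0.0513), and the change was -1.77 without replicate 2 of treated WT cells. Dusp6 (ENSMUSG00000019960) had 2637 and 2610.3 normalized counts in untreated WT cells and 1739.6 and 2166 in treated ones, with a log2 fold change of -0.38 that did not pass the test (SE 0.30, edgeR adjusted p = 0.322). In Cfp1-/- cells it had 1556 and 1172 without and 997 and 462 with doxorubicin and fell by 0.86 on the log2 scale (SE 0.30, edgeR adjusted p = 0.04). That call was lost without replicate 1 of untreated (-0.65, adjusted p = 0.185) or replicate 2 of treated Cfp1-/- cells (-0.41, adjusted p = 0.198), and under total count scaling (-0.65, adjusted p = 0.0943). Without replicate 1 of treated Cfp1-/- cells the change of Dusp6 was -1.54.

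Etv5 and Etv4 encode closely related ETS transcription factors of the PEA3 group. Etv5 (ENSMUSG00000013089) had the tightest replicates of all members, with 8188 and 8095 normalized counts in untreated WT cells, 3183 and 3374 in treated WT cells, 5408 and 5418 in untreated Cfp1-/- cells and 2647 and 2421 in treated Cfp1-/- cells. It fell 2.41-fold in WT cells (log2 fold change -1.27, SE 0.12, edgeR adjusted p = 3.24e-05) and 2.07-fold in Cfp1-/- cells (-1.05, SE 0.12, edgeR adjusted p = 9.47e-05). Its adjusted p was the smallest of any member in either response. Etv4 (ENSMUSG00000017724) went the other way in level, with 825 and 569 normalized counts in untreated WT, 1031 and 903 in treated WT, 1636 and 979 in untreated Cfp1-/- and 1637 and 1077 in treated Cfp1-/- cells. Its log2 fold change stood at 0.52 in WT cells (SE 0.29, edgeR adjusted p = 0.168) and at 0.10 in Cfp1-/- cells (SE 0.28, edgeR adjusted p = 0.804), so neither response passed the test. With replicate number as a blocking factor the change of Etv4 in WT cells was called (0.55, adjusted p = 0.00889), as it was under total count scaling (0.83, adjusted p = 0.0334). The block brought the members called in WT cells to 8 of 10, where that fit called 55.9% of all genes. In Cfp1-/- cells the blocked fit called 7 of 10 members and 57.0% of all genes.

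Fgf4, the ligand, fell in WT cells. Fgf4 (ENSMUSG00000050917) had 3432.5 and 2317 normalized counts in untreated WT cells and 1478 and 708 after doxorubicin, a drop of 2.56-fold (log2 fold change -1.35, SE 0.30, edgeR adjusted p = 0.00442). Without replicate 1 of treated WT cells the change was -1.98. The Cfp1-/- replicates had 9249.5 and 9212.5 without and 6859 and 7059 with the drug. Treated Cfp1-/- libraries were below the untreated ones, but the log2 fold change of -0.37 did not pass the test (SE 0.29, edgeR adjusted p = 0.323). Fgfr1 (ENSMUSG00000031565), the receptor tyrosine kinase, was the only member that rose. It had 1571 and 1909 normalized counts in untreated WT cells, 3013 and 2575 in treated WT cells, 1181 and 873 in untreated Cfp1-/- cells and 1794 and 1792 in treated Cfp1-/- cells. The rise was 1.66-fold in WT cells (log2 fold change 0.73, SE 0.18, edgeR adjusted p = 0.00707) and 1.80-fold in Cfp1-/- cells (0.85, SE 0.18, edgeR adjusted p = 0.00338). In WT cells the call was lost without replicate 1 of untreated WT cells (0.60, adjusted p = 0.0555).

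**Figure D2:**
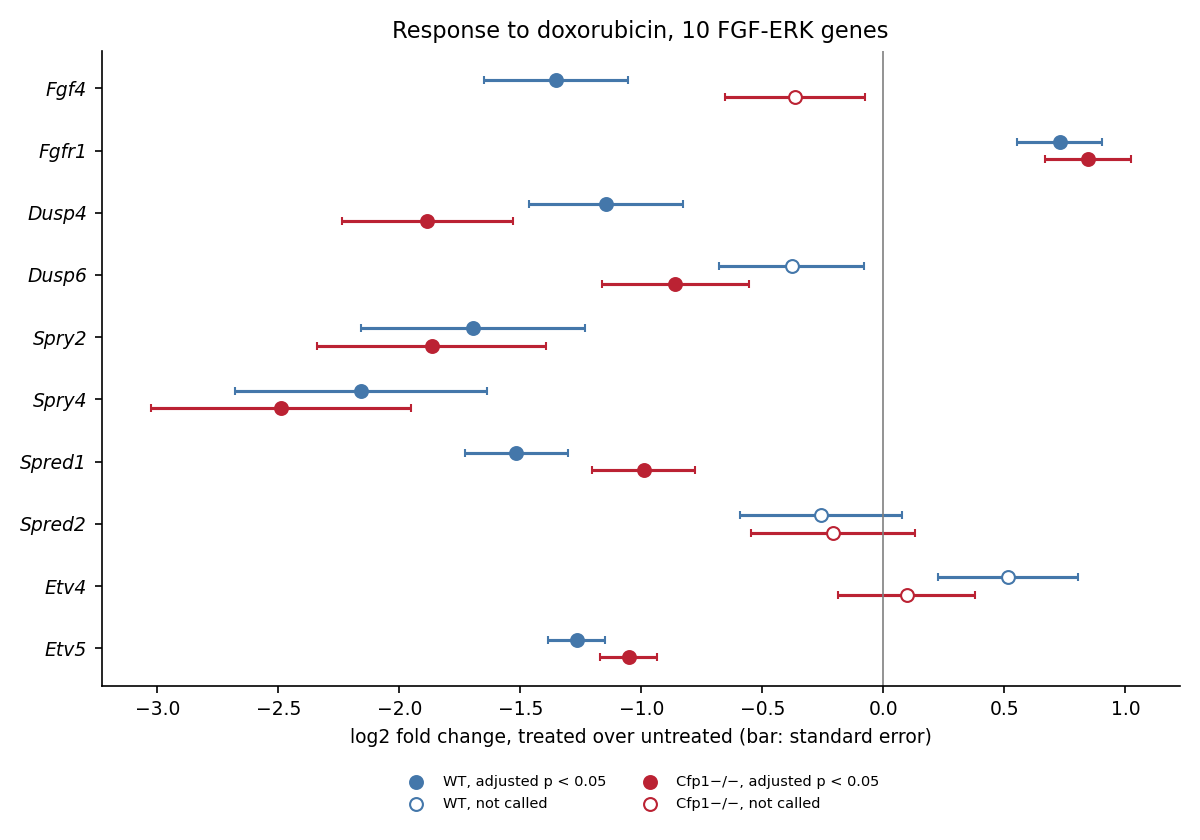
Log2 fold change of each of the 10 genes, doxorubicin-treated over untreated (horizontal axis), in WT (blue) and Cfp1-/- cells (red), with bars of 1 SE (n = 2 per group). Filled points passed an adjusted p of 0.05 and open points did not. Most points lie left of 0 and Fgfr1 lies right of it, at 0.73 and 0.85, and the bars of the lines are apart for Fgf4, Dusp4 and Spred1.

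Whether the response differed between the lines was tested as an interaction term. None of the 10 members passed an adjusted p of 0.05 with edgeR, against 0.235% of all genes, and none did with DESeq2 or with the replicate block, which called 1.54% of all genes. Neither for DESeq2 nor for an unadjusted p was a share of all genes computed. At an unadjusted p under 0.05 there was 1 member, Fgf4. Its response in Cfp1-/- cells minus that in WT cells was 0.99 on the log2 scale (95% interval 0.07 to 1.91, edgeR adjusted p = 0.439). The next widest differences were -0.74 for Dusp4 (interval -1.80 to 0.32, edgeR adjusted p = 0.626) and 0.52 for Spred1 (interval -0.14 to 1.19, edgeR adjusted p = 0.575). The intervals of Spry2 and Spry4 ran from -1.62 to 1.28 and from -1.94 to 1.28. With the replicate block their differences were -0.098 (SE 0.31) and -0.34 (SE 0.27), again not called. For Etv5 the difference was 0.21 with an interval of -0.15 to 0.58.

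Without doxorubicin, Cfp1-/- cells had more Fgf4 RNA and less RNA of the receptor and of several feedback genes than WT cells. At an adjusted p under 0.05, 2 members were higher (Fgf4 and Etv4) and 5 were lower (Fgfr1, Dusp4, Dusp6, Spred1 and Etv5), against 17.9% and 16.1% of all genes tested. All 10 members had groups that did not overlap, as did 69.9% of all genes. With the same fold and count limits, 3 members were called beside 3.33% of all genes. With doxorubicin, 1 member was higher (Fgf4) and 4 were lower (Fgfr1, Dusp4, Dusp6 and Spred1), against 15.1% and 10.8% of all genes, and 3 were called with the fold and count limits beside 2.61% of all genes. In treated cells 9 members had groups that did not overlap, as did 65.0% of all genes. The median difference over the members was -0.77 untreated and -0.83 with doxorubicin on the log2 scale, beside 0.01 and 0.02 over all genes. Taken from replicates 1 and 2 separately, this median was -0.62 and -1.06 untreated and -0.82 and -0.67 with doxorubicin. Under total count scaling it was -0.58 untreated and -0.74 treated, beside 0.20 and 0.11 over all genes. With the replicate block all 10 members passed in both conditions, where the blocked fit called 43.6% of all genes in untreated and 36.8% in treated cells. Markers of cell state also differed between the untreated lines. Of the 8 naive markers, Tbx3 (10.5-fold), Nanog (2.74-fold) and Klf2 (1.80-fold) were higher and Zfp42 and Pou5f1 lower in Cfp1-/- cells, and their sums overlapped between the lines. Primed epiblast markers summed to between 14774 and 24971 normalized counts in WT and between 9979 and 12753 in Cfp1-/- cells, with Fgf5 and Otx2 lower and Pou3f1, at 0 in all WT libraries, higher. The neural sums ran from 3434 to 4402 and from 1490 to 1977 (Pax6 lower), while 1 of 6 primitive endoderm markers (Pdgfra) and 1 of 2 trophoblast markers (Elf5) were higher and T of mesoderm and 2 of 3 fibroblast markers were lower. With doxorubicin 2 naive markers were higher and 1 lower, and 2 of 3 neural markers were lower. The part of these markers in the differences of the members was not tested.

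Fgf4 was 3.27-fold higher in untreated Cfp1-/- than in untreated WT cells (log2 difference 1.71, SE 0.30, edgeR adjusted p = 0.00249) and 6.49-fold higher with doxorubicin (2.70, SE 0.31, edgeR adjusted p = 0.00065, and 3.32 without replicate 1 of treated WT cells). All 4 Cfp1-/- libraries stood above all 4 WT libraries. Fgf4 lies on chromosome 7 (152047291 to 152051148, NCBIm37), where the median of the 1283 genes tested was also higher in Cfp1-/- cells, by 0.53 untreated and 0.47 with doxorubicin on the log2 scale. The part of this shift in the result was not tested, and the difference of Fgf4 exceeded it by 1.18 and 2.23. Fgfr1 was 1.66-fold lower in untreated (log2 difference -0.73, SE 0.18, edgeR adjusted p = 0.0113) and 1.53-fold lower in treated Cfp1-/- cells (-0.61, SE 0.17, edgeR adjusted p = 0.0295). Fgfr1 lies on chromosome 8 (26624126 to 26686186), whose genes had a median of -0.23 and -0.25. The call for Fgfr1 without drug was lost without replicate 2 of untreated WT (-0.59, adjusted p = 0.0739) or of untreated Cfp1-/- cells (-0.52, adjusted p = 0.0762). With drug it was lost without replicate 1 of treated WT (-0.50, adjusted p = 0.118), replicate 1 of treated Cfp1-/- (-0.63, adjusted p = 0.109) or replicate 2 of treated Cfp1-/- cells (-0.61, adjusted p = 0.128).

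**Figure D3:**
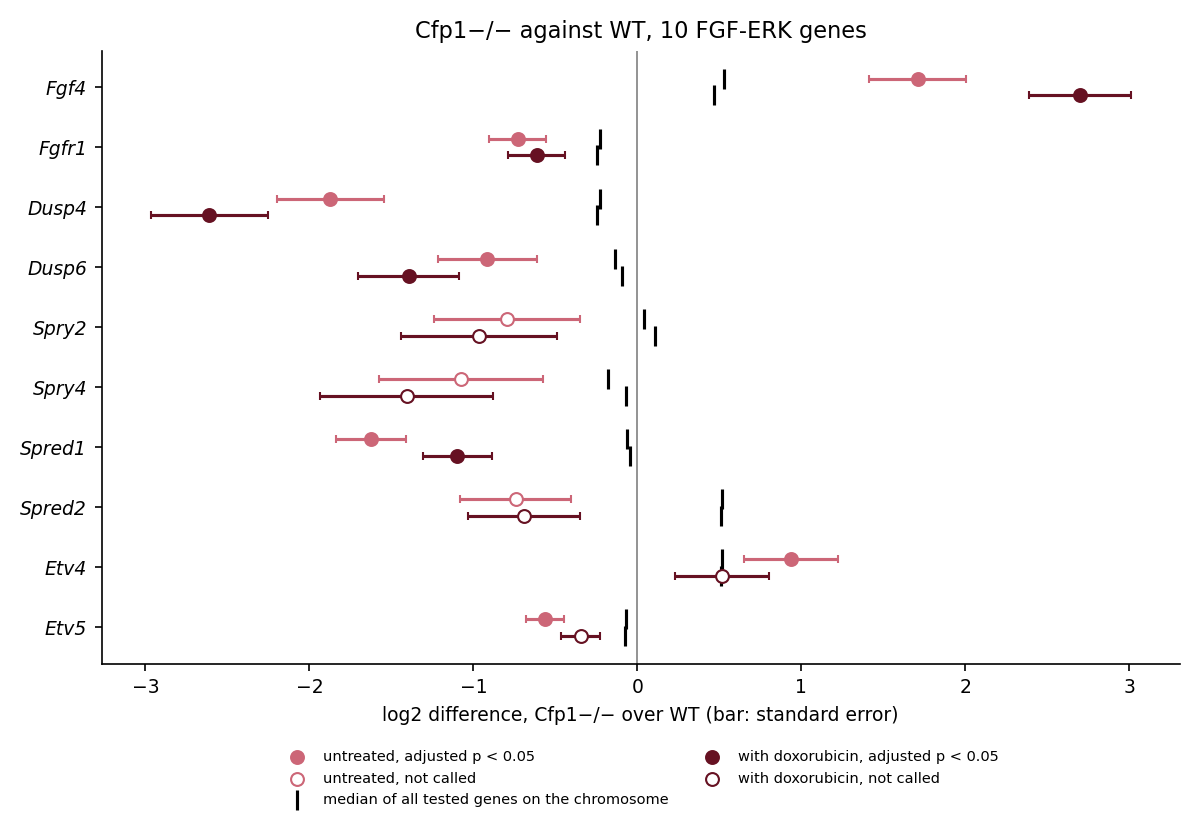
Log2 difference of each of the 10 genes, Cfp1-/- over WT (horizontal axis), untreated (light red) and with doxorubicin (dark red), with bars of 1 SE (n = 2 per group). Filled points passed an adjusted p of 0.05, open points did not, and black ticks mark the median of all tested genes on the same chromosome. Fgf4 lies at 1.71 and 2.70, far right of its ticks at 0.53 and 0.47, and Dusp4 lies furthest left, at -1.87 and -2.61.

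The ERK phosphatases were lower in Cfp1-/- cells in both conditions. Dusp4 was 3.66-fold lower untreated (log2 difference -1.87, SE 0.33, edgeR adjusted p = 0.0026) and 6.11-fold lower with doxorubicin (-2.61, SE 0.36, edgeR adjusted p = 0.00136, and -1.99 without replicate 2 of treated WT cells). Its highest untreated Cfp1-/- library (285.5 normalized counts) overlapped the range of treated WT cells, whereas treated Cfp1-/- cells stayed under 72. Dusp4 lies on chromosome 8 (35870351 to 35882948), and its differences minus the chromosome's median were -1.65 and -2.36. The part of the chromosome's shift was not tested here either. Dusp6 was 1.88-fold lower untreated (log2 difference -0.91, SE 0.30, edgeR adjusted p = 0.0407) and 2.63-fold lower with doxorubicin (-1.40, SE 0.31, edgeR adjusted p = 0.0105). The untreated call for Dusp6 was lost when any of the 4 untreated libraries was left out, with log2 differences of -0.90 and -0.93 without WT replicate 1 and 2 and of -1.12 and -0.72 without Cfp1-/- replicate 1 and 2. Total count scaling also ended it (-0.72, adjusted p = 0.0773). The treated call was lost without replicate 2 of treated WT cells (-1.23, adjusted p = 0.0504), and the difference was -2.07 without replicate 1 of treated Cfp1-/- cells.

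Among the Spreds, Spred1 was 3.08-fold lower untreated (log2 difference -1.62, SE 0.21, edgeR adjusted p = 0.00068) and 2.14-fold lower with doxorubicin (-1.10, SE 0.21, edgeR adjusted p = 0.00616). The treated call was lost without replicate 2 of treated Cfp1-/- cells (-0.96, adjusted p = 0.0568). Spred2 did not pass the test, with -0.74 untreated (SE 0.34, edgeR adjusted p = 0.117) and -0.69 treated (SE 0.34, edgeR adjusted p = 0.161), but it did with the replicate block (-0.78, adjusted p = 0.00156, and -0.65, adjusted p = 0.00666). Without replicate 1 of untreated Cfp1-/- cells it was also called untreated (-1.23, adjusted p = 0.0477). Spred2 lies on chromosome 11 (19824378 to 19924029), where the median of all genes was higher in Cfp1-/- cells by 0.51 in both conditions, opposite in sign to Spred2.

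Both Sproutys had lower mean counts in Cfp1-/- cells without passing the test, and the treated groups of Spry2 overlapped. For Spry2 the log2 difference was -0.80 untreated (SE 0.45, edgeR adjusted p = 0.195) and -0.97 treated (SE 0.47, edgeR adjusted p = 0.16), and the replicate block called both (-0.85, adjusted p = 0.00661, and -0.94, adjusted p = 0.00776). For Spry4 it was -1.08 (SE 0.50, edgeR adjusted p = 0.124) and -1.41 (SE 0.53, edgeR adjusted p = 0.0779), again called in the blocked fit (-1.16, adjusted p = 0.00039, and -1.50, adjusted p = 0.00021). Without the filter edgeR also called Spry4 untreated (adjusted p = 0.0353) and treated (0.0138). With the groups compared alone it called Spry2 untreated (0.0427) and Spry4 treated (0.0449). DESeq2 called neither gene in either condition. Replicate 2 had fewer normalized counts than replicate 1 in all 4 groups for Spry2, Spry4, Spred1, Spred2 and Etv4. The ratio of replicate 2 to replicate 1 ran from 0.33 to 0.66 for Spry4 and from 0.39 to 0.80 for Spry2, and from 0.91 to 1.06 for Etv5. With doxorubicin, Spry2 was called without replicate 2 of treated WT cells (-1.50, adjusted p = 0.0457) and Spry4 without replicate 1 of treated Cfp1-/- cells (-2.43, adjusted p = 0.0326).

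The ETS factors went in opposite directions in untreated Cfp1-/- cells. Etv5 was 1.47-fold lower (log2 difference -0.56, SE 0.12, edgeR adjusted p = 0.00564) and Etv4 was 1.91-fold higher (0.94, SE 0.29, edgeR adjusted p = 0.0316). With doxorubicin, Etv5 was at -0.35 (SE 0.12, edgeR adjusted p = 0.0537) and Etv4 at 0.52 (SE 0.29, edgeR adjusted p = 0.212), and each was called in the blocked fit (adjusted p = 0.0284 and 0.0268), Etv5 also by DESeq2 (adjusted p = 0.034). Etv4, like Spred2, lies on chromosome 11 (101631056 to 101646685), and its differences were above the chromosome's median of 0.51 by 0.42 untreated and by 0.0039 with doxorubicin. The part of the chromosome's shift in the result was not tested. Without drug the call for Etv4 was lost without replicate 2 of untreated WT (0.69, adjusted p = 0.166) or replicate 1 of untreated Cfp1-/- cells (0.53, adjusted p = 0.227).

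To set the genes beside each other, normalized counts were divided by the length of each gene's exons. In untreated WT cells Etv5 stood highest, with 1973 and 1996 normalized counts per kb of exon, above Spred1 with 900.2 and 1404. Fgf4 (765 and 1133) and Dusp6 (934 and 943) followed, and the ranges of Spred1, Fgf4 and Dusp6 overlapped. Spry4 had 568 and 864 and Spry2 543 and 681 normalized counts per kb, which overlapped each other. Dusp4, Spred2, Etv4 and Fgfr1 formed the lower end with 183 to 357 normalized counts per kb, each overlapping its neighbour in the order. In untreated Cfp1-/- cells Fgf4 stood highest, with 3040.4 and 3053 normalized counts per kb, followed by Etv5 with 1318 and 1320.5. Dusp4 was lowest there, with 71.2 and 104 per kb, and did not reach the lower replicate of Fgfr1, at 108. After doxorubicin the order in Cfp1-/- cells began with Fgf4 (2264 and 2330 per kb) and Etv5 (590 and 645) and ended with Spry4 (28.6 and 86.6) and Dusp4 (20.1 and 26.1). In treated WT cells Etv5 (776 and 822 per kb) and Dusp6 (622 and 775) stood highest without overlap, and Dusp4 had the lowest mean with 93.2 and 193, although its replicates overlapped those of other members.

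The wider FGF-ERK pathway moved in both directions. Of 75 other pathway genes listed, 74 were in the tables and 66 were tested. In WT cells 18 of the 66 rose and 20 fell with doxorubicin, and in Cfp1-/- cells also 18 rose and 20 fell, shares of 27.3% and 30.3%, beside 26.5% and 27.8% of all genes that rose and 21.8% and 21.0% that fell. With the fold and count limits 11 (16.7%) were called in WT and 8 (12.1%) in Cfp1-/- cells, beside 7.91% and 7.61% of all genes. Over all 66, the median stood at -0.09 in WT and at -0.11 in Cfp1-/- cells on the log2 scale. Untreated Cfp1-/- cells had 7 of the 66 higher and 23 lower than untreated WT cells, and with doxorubicin 5 were higher and 14 lower, beside 17.9%, 16.1%, 15.1% and 10.8% of all genes. The run with lost counts bears on the last of these, since without it 5 were higher and 12 lower, of 67 then tested. No share of all genes was computed for the fit without it. The calls of Dusp5 (-0.73, adjusted p = 0.0383), Dusp9 (-0.97, adjusted p = 0.00489) and Rps6ka3 (-0.83, adjusted p = 0.0149) by edgeR between the treated lines were then lost, at -0.42 (adjusted p = 0.189), -0.64 (adjusted p = 0.0503) and -0.52 (adjusted p = 0.0966). For doxorubicin in Cfp1-/- cells 19 of these 67 rose and 19 fell without that run, and Rps6ka3 was no longer called (-0.37, adjusted p = 0.179).

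Among the remaining feedback inhibitors, all 3 that were tested fell in WT cells, namely Spry1, Spred3 and Il17rd, the last encoding a membrane inhibitor also called Sef. Il17rd had 1962 and 2115 normalized counts in untreated and 714 and 575 in treated WT cells, a log2 fold change of -1.62 (SE 0.15, edgeR adjusted p = 3.25e-05). Spred3 fell by 1.61 in WT cells and by 1.85 in Cfp1-/- cells on the log2 scale (edgeR adjusted p = 0.00164 and 0.000895). Spry1 fell by 0.94 in WT cells (SE 0.26, edgeR adjusted p = 0.0146), a call that was lost without replicate 2 of untreated WT (-0.78, adjusted p = 0.0746) or replicate 1 of treated WT cells (-0.90, adjusted p = 0.0627) and under total count scaling (-0.63, adjusted p = 0.069). The change of Spry1 in Cfp1-/- cells was -0.08 (SE 0.26, edgeR adjusted p = 0.83), and its level was lower there without drug, at 212 and 234 against 436 and 549 normalized counts in WT cells (log2 difference -1.11, edgeR adjusted p = 0.0101). The latter call was lost without replicate 2 of untreated WT (-0.94, adjusted p = 0.0582) or replicate 1 of untreated Cfp1-/- cells (-1.02, adjusted p = 0.0709). Spred3 differed by -0.81 between the treated lines (edgeR adjusted p = 0.0834), which was called with the replicate block (adjusted p = 0.0379).

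Of the 5 other ERK-directed phosphatases tested, 2 rose in either line and none fell. Dusp2, which encodes a nuclear ERK phosphatase and is a known p53 target, rose from 15.3 and 17.7 to 189 and 232 normalized counts in WT cells (log2 fold change 3.72, SE 0.29, edgeR adjusted p = 1.41e-05) and from 15.8 and 18.6 to 248 and 235 in Cfp1-/- cells (3.85, SE 0.29, edgeR adjusted p = 1.27e-05). Dusp5 and Dusp9 had log2 fold changes between -0.28 and 0.20 in the 2 lines, none of which passed the test. Under total count scaling Dusp5 turned positive in WT cells (0.04) and Dusp9 was called there (0.51, adjusted p = 0.0361). Both were among the 6 pathway genes whose counts were lost in the second run of replicate 1 of treated Cfp1-/- cells. Among 6 other ETS factors, Etv1, the third member of the PEA3 group, fell by 1.71 in WT cells (SE 0.32, edgeR adjusted p = 0.00189) and by 2.37 in Cfp1-/- cells (SE 0.35, edgeR adjusted p = 0.000504). Ets1 and Ets2 rose in both lines, Ets1 by 3.52 on the log2 scale in Cfp1-/- cells, from 67.7 and 103 to 924 and 985 normalized counts (edgeR adjusted p = 0.000173).

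Of the ligands, 9 of the 17 listed were tested, with 2 higher and 4 lower in WT cells and 2 higher and 3 lower in Cfp1-/- cells. Fgf18 rose from 34.3 and 38.9 to 475 and 491 normalized counts in Cfp1-/- cells (log2 fold change 3.76, edgeR adjusted p = 3.57e-05). Fgf10 was called lower in Cfp1-/- cells, from 75.1 and 72.7 normalized counts to 3 and 0 raw counts, where no fold is given because the treated libraries are at the floor of 3 counts. Fgf5, a marker of primed epiblast, fell in WT cells from 110.4 and 658 to 9.2 and 37.0 normalized counts, but its untreated replicates lay far apart and the call was lost without replicate 2 of untreated WT cells (log2 fold change -2.18, adjusted p = 0.0539). In Cfp1-/- cells Fgf5 went from 13.9 and 58.3 to 2.0 and 6.7 normalized counts. That change did not pass the test (log2 fold change -2.95, SE 1.22, edgeR adjusted p = 0.0709) but did with the replicate block (adjusted p = 0.000122). Fgf8 had too few counts to be tested, with at most 22.9 normalized counts in any library.

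Among receptors, Fgfr4 rose strongly from a low level, from 13.6 and 20.8 to 301 and 193 normalized counts in WT cells (log2 fold change 3.89, SE 0.39, edgeR adjusted p = 5.09e-05) and from 30.6 and 17.7 to 222 and 196 in Cfp1-/- cells (3.15, SE 0.37, edgeR adjusted p = 0.000132). Fgfr2 and Fgfr3 did not pass the test in WT cells (-0.06 and 0.14) or in Cfp1-/- cells (-0.48 and 1.32, edgeR adjusted p = 0.169 and 0.0568). With the replicate block Fgfr3 was called in Cfp1-/- cells (adjusted p = 0.0345). Of the 14 genes of the cascade from Ras to ERK, 8 fell and 2 rose in WT cells and 7 fell and 3 rose in Cfp1-/- cells. Of these 14, Shoc2 and Araf had lost counts in the affected run. Shoc2 was called in Cfp1-/- cells with that run (-0.85, edgeR adjusted p = 0.00364) and without it (-0.57, adjusted p = 0.0032), and Araf in neither fit. The scaffold gene Ksr1 had the largest rise among them, from 184 and 156 to 812 and 753 normalized counts in WT cells (log2 fold change 2.25, SE 0.22, edgeR adjusted p = 4.64e-05).

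**Figure D4:**
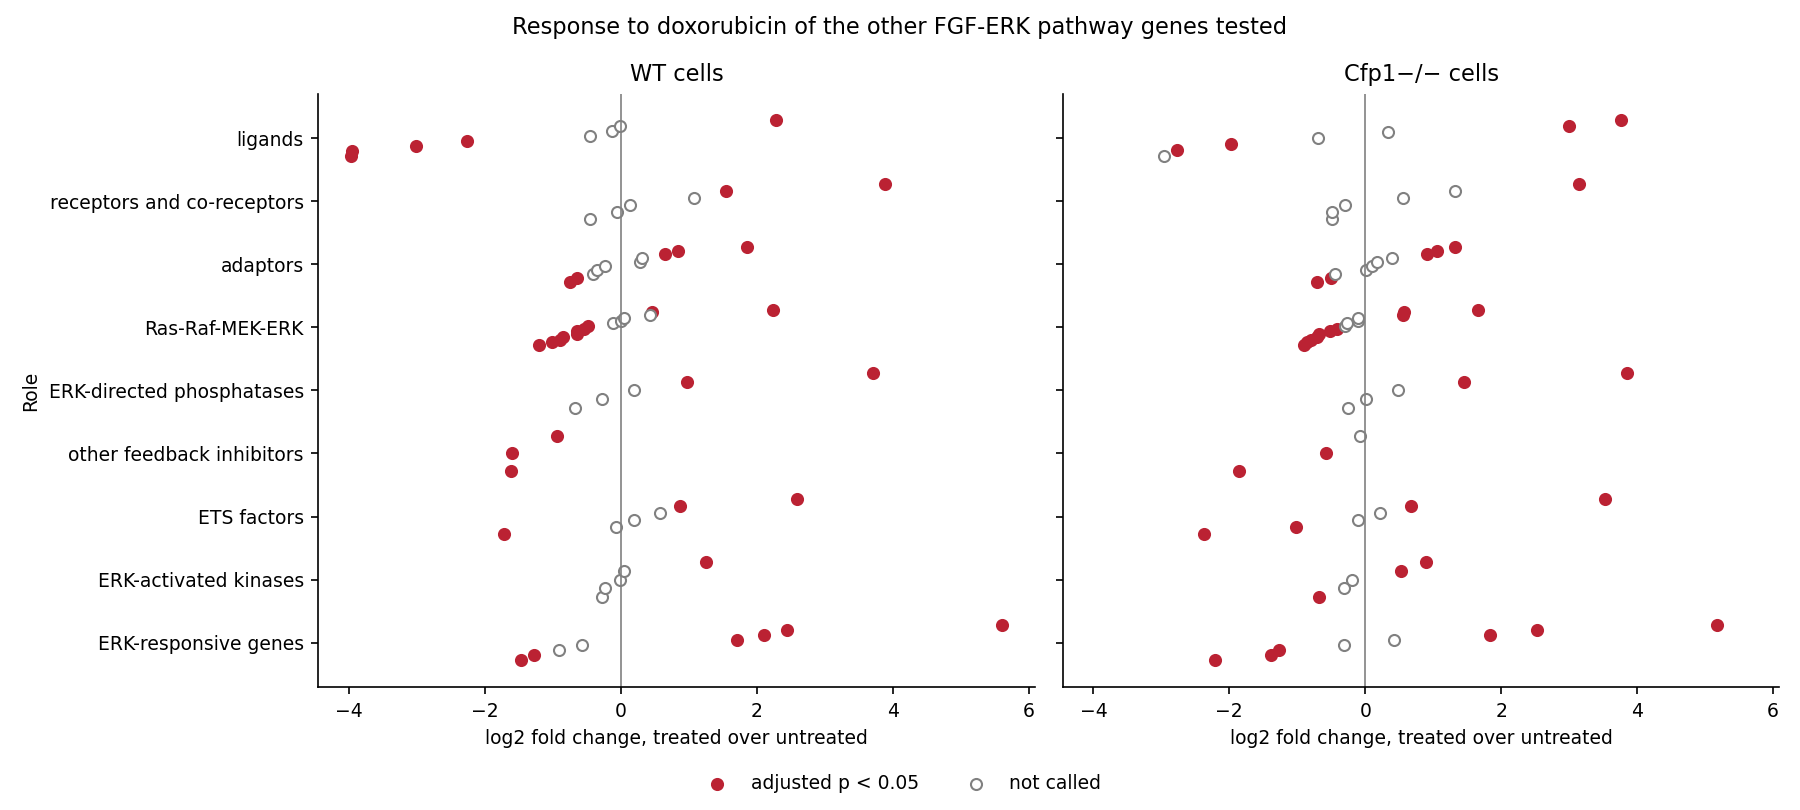
Log2 fold change, doxorubicin-treated over untreated (horizontal axis), of the other pathway genes tested, by role (vertical axis), in WT cells (left) and Cfp1-/- cells (right). Each point is a gene, red where it passed an adjusted p of 0.05 and open where it did not, with 65 genes drawn for WT and 64 for Cfp1-/- cells because genes with at most 3 counts in a group were left out (Fgf22 in WT, Fgf10 and Fgf22 in Cfp1-/- cells). The points of most roles fall on both sides of 0, and the 3 feedback inhibitors lie at or left of it.

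Of 8 genes known to respond to ERK, 4 rose and 2 fell in WT cells, and 3 rose and 3 fell in Cfp1-/- cells. Fosl1, a partner of Jun in the AP-1 factor, rose from 22.9 and 20.8 to 1157 and 939 normalized counts in WT cells (log2 fold change 5.61, SE 0.22, edgeR adjusted p = 1.65e-06) and from 23.2 and 27.9 to 915 and 891 in Cfp1-/- cells (5.18, SE 0.22, edgeR adjusted p = 2.17e-06). Egr1, an immediate early gene, had 233 and 377 normalized counts in untreated and 1116 and 821 in treated WT cells, but 1148 and 1374 in untreated and 999.8 and 964 in treated Cfp1-/- cells. It was thus about as high in untreated Cfp1-/- cells as in treated WT cells, and higher than in untreated WT cells by 2.08 on the log2 scale (SE 0.24, edgeR adjusted p = 0.000376).

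No pathway gene of the 66 passed the test of the response difference with edgeR, although 8 had an unadjusted p under 0.05. DESeq2 and the replicate block each called 2, where the block called 1.54% of all genes. The shares of all genes for DESeq2 and for an unadjusted p were not computed. The genes called were Egr1 and Il17rd, named here after their values were seen. The response of Egr1 in Cfp1-/- cells minus that in WT cells was -2.03 on the log2 scale (SE 0.33, edgeR adjusted p = 0.0547), with adjusted p = 8.09e-06 in DESeq2 and 0.00706 with the block. The response of Il17rd was higher, that is a smaller drop, by 1.04 (SE 0.21, edgeR adjusted p = 0.111), with adjusted p = 0.00482 in DESeq2 and 0.0256 with the block.

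Between the lines, several pathway genes differed in both conditions. Braf, which encodes the main Raf kinase, had 5317 and 5462 normalized counts in untreated WT and 2643 and 2650.3 in untreated Cfp1-/- cells (log2 difference -0.998, SE 0.13, edgeR adjusted p = 0.000652), and the difference with doxorubicin was -1.001 (SE 0.13, edgeR adjusted p = 0.00111). Etv1 differed by -1.29 untreated (edgeR adjusted p = 0.0119) and by -1.94 with doxorubicin (edgeR adjusted p = 0.00469) on the log2 scale. The untreated call for Etv1 was lost without replicate 1 of untreated WT (-1.10, adjusted p = 0.0553) or replicate 2 of untreated Cfp1-/- cells (-1.15, adjusted p = 0.0765). Among the other paralogs of members, Dusp9 (-0.78, edgeR adjusted p = 0.00856), Dusp5 (-0.75, edgeR adjusted p = 0.0248) and Fgf5 (-3.36, edgeR adjusted p = 0.017) were lower in untreated Cfp1-/- cells. Dusp5 lost this call without any 1 of the 4 untreated libraries (adjusted p from 0.0768 to 0.125), Dusp9 without replicate 1 of untreated WT (adjusted p = 0.0684) or replicate 2 of untreated Cfp1-/- cells (adjusted p = 0.064), and Fgf5 without replicate 2 of untreated WT (adjusted p = 0.17) or replicate 1 of untreated Cfp1-/- cells (adjusted p = 0.112). Nf1, the neurofibromin gene, was higher with doxorubicin, at 5844 and 5499 against 2937 and 2333 normalized counts (log2 difference 1.13, SE 0.16, edgeR adjusted p = 0.00149), on chromosome 11, whose median was 0.51. Klb, a co-receptor gene, had 4.2 and 1.0 normalized counts in untreated WT cells and 50.1 and 63.4 in untreated Cfp1-/- cells (edgeR adjusted p = 0.000508). Fgfr2 differed by -1.08 on the log2 scale with doxorubicin (edgeR adjusted p = 0.019), a call lost without replicate 2 of treated WT (-0.66, adjusted p = 0.126) or of treated Cfp1-/- cells (-0.79, adjusted p = 0.133). Mknk2, which encodes a kinase activated by ERK, had 1124 and 1079.5 normalized counts in treated WT and 527 and 500.3 in treated Cfp1-/- cells (log2 difference -1.08, edgeR adjusted p = 0.00198). Ier2, an immediate early gene, had 489.9 and 384.5 against 148 and 84.8 (-1.88, edgeR adjusted p = 0.00154). Fgfrl1, a receptor without the kinase domain, had 254.8 and 229 normalized counts in untreated WT against 85.3 and 101 in untreated Cfp1-/- cells (-1.35, edgeR adjusted p = 0.0028).

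Profiles over the 8 biological replicates were compared by the root-mean-square (RMS) difference of centred log2 CPM after TMM scaling. Spry2 and Spry4 were each other's nearest member, 0.41 apart, where the RMS of the profile itself was 1.15 for Spry2 and 1.48 for Spry4. Over all genes tested the nearest to Spry4 were Socs2 (0.34), Etv1 (0.36) and Pim1 (0.40). Etv5, whose own profile had an RMS of 0.63, was nearest to Tatdn2 (0.06), Sp3 (0.07) and Syncrip (0.07), and Spred1 was the nearest member at 0.49. Fgf4 had no close match among the members, the nearest being Etv4 at 1.11 against an RMS of 1.28 for its own profile. Over all genes the nearest to Fgf4 were Trim38 (0.30), Ahsg (0.32) and Scn2b (0.33). These likenesses are descriptions over libraries that share 2 treatments and 2 lines.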

How the data were processed

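RNA was depleted of ribosomal RNA and made into strand-specific paired-end libraries. The authors aligned reads to NCBIm37 (mm9) with STAR (2.2.1 in the submitters' processing notes) and used HTSeq-count on Ensembl exons, reading the strand. They deposited raw counts per technical replicate. The authors also deposited normalized counts, a signal in which the counts of both runs are added and scaled by a DESeq size factor.

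Counts of technical replicates were summed. Fold changes came from edgeR 4.0.16 in R 4.3.3 (filterByExpr, TMM, a model of 4 group means, glmQLFit and glmQLFTest), adjusted by Benjamini-Hochberg over 15758 genes, with SEs derived from the test statistic. The groups share 1 estimate of the spread, with 4 residual and 5.62 prior degrees of freedom. Alternatives were DESeq2 1.42.0 (Wald test), other scalings, no filter, the groups compared alone, fold and count limits, a replicate block, first runs alone, omission of the affected run, and each replicate left out in turn. The block together with that omission was added after seeing the data. The scripts were tested on simulated counts. Exon lengths came from a GENCODE annotation of NCBIM37, which held 22324 of the 22375 genes. Where several identifiers carried a symbol, the one with the longest exon model was used.

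Between technical replicates, chi-square divided by its degrees of freedom was 0.998 to 1.05 in 6 libraries, 9.61 in replicate 1 of treated WT cells and 42.9 in that of treated Cfp1-/- cells. Replicate numbers recur in every group. Deviations from group means of same-numbered replicates correlated across genes at 0.14 to 0.451 in all 6 pairs of groups. No source says what these replicates share. The fit reported does not pair samples by replicate number, so its calls leave this shared deviation in the spread. Only the replicate block, given as an alternative, pairs them.

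All members were named. Of the pathway list, up to 6 called genes per comparison with the smallest adjusted p and the paralogs of members were to be named. Members and lists were chosen with earlier results of these data known.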

Additional observations from a re-analysis of the deposited data

How the results depend on the processing

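Leaving out each replicate in turn left 1 library in a group, which was assumed to vary like the others. Members called then numbered 6 to 7 for doxorubicin in WT and 5 to 7 in Cfp1-/- cells, 4 to 7 between the untreated lines (4 without replicate 2 of untreated WT cells) and 3 to 5 between the treated lines (3 without replicate 2 of treated Cfp1-/- cells). Pathway genes called numbered 12 to 32 between the untreated lines, 9 to 19 between the treated lines and 0 to 1 for the response difference. With the fold and count limits, 4 members and 11 pathway genes were called for doxorubicin in WT cells, beside 7.91% of all genes. In Cfp1-/- cells these were 2 and 8, beside 7.61%. Between the untreated lines they were 3 and 4, beside 3.33%, and between the treated lines 3 and 1, beside 2.61%. Between the treated lines the replicate block called 10 members in place of 5, beside 36.8% of all genes. It also called 10 without the affected run, where no share of all genes was computed. For the response difference, 0 pathway genes were called by edgeR, 2 by DESeq2, 2 without the filter and 2 with the replicate block. The block and the omission of the affected run combined called 2. Total count scaling, omission of that run and first runs alone called 1 each. Among these fits the share of all genes was computed only for the fit reported (0.235%) and the block (1.54%). The cause of these changes was not tested.

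None of the values that changed sign was called in the fit reported. Under total count scaling Spred2 went to 0.058 in WT, 0.010 in Cfp1-/- cells and -0.047 for the difference, Dusp5 to 0.037 in WT cells and -0.073 for the difference, Fgfr2 to 0.26 in WT and Spry1 to 0.13 in Cfp1-/- cells. Without the affected run Dusp5 in Cfp1-/- cells went to 0.054 (0.051 when blocked as well, 0.13 with first runs alone) and the difference of Dusp9 to 0.14 (0.12 and 0.15). Dusp9 in Cfp1-/- cells went to -0.024 with DESeq2 size factors and -0.028 with DESeq2. With a replicate or run left out, log2 changes in WT cells ranged from -0.73 to 0.089 for Spred2, -0.016 to 0.43 for Dusp9, -0.49 to 0.26 for Fgfr2 and -0.34 to 0.80 for Fgfr3. In Cfp1-/- cells they ranged from -0.60 to 0.29 for Spred2, -0.26 to 0.51 for Etv4, -0.38 to 0.054 for Dusp5, -0.15 to 0.34 for Dusp9 and -0.54 to 0.26 for Spry1. Response differences ranged from -0.10 to 0.34 for Fgfr1, -0.89 to 0.65 for Spry2, -1.36 to 0.32 for Spry4, -0.34 to 0.55 for Spred2, -0.18 to 0.33 for Dusp5, -0.46 to 0.14 for Dusp9, -0.82 to 2.37 for Fgf5 and -0.62 to 0.048 for Spred3. Between the lines they ranged from -1.21 to 0.013 for Fgfr3 untreated, and with doxorubicin from -0.51 to 0.13 for Fgfr4 and -0.71 to 0.10 for Spry1. Log2 values of named genes were also counted once for each comparison and each alternative fit, so 1 result enters many times. Apart from leaving out replicates, 946 such values kept direction and call, 51 gained a call, 12 lost it and 15 changed sign. With a replicate left out 37 changed sign, and calls were lost more often than gained. Some pathway genes were named for their small adjusted p, so that these kept their calls was partly fixed in advance.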

Other observations

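Fgf4 has neighbours of the same family. On chromosome 7 (NCBIm37) Fgf3 lies from 152023988 to 152030341, 16949 bases before Fgf4, and Fgf15 lies from 152082437 to 152086858, 31288 bases after it, followed after 28977 bases by Ccnd1, the cyclin D1 gene, from 152115836 to 152125774. Fgf15 and Ccnd1 were picked for this comparison after their values were seen. In untreated cells Fgf3 had 10.2 and 16.7 normalized counts in WT and 82.5 and 85.4 in Cfp1-/- replicates, a log2 difference of 2.68 (SE 0.38, edgeR adjusted p = 0.00101), and with doxorubicin the difference was 2.44 (SE 0.42, edgeR adjusted p = 0.00361). Fgf3 and Fgf4 were thus both higher in Cfp1-/- cells in both conditions. Fgf15 had 150.3 and 175 normalized counts in untreated WT and 62.1 and 106.5 in untreated Cfp1-/- cells, a difference of -0.92 that did not pass the test (SE 0.41, edgeR adjusted p = 0.114) but did with the replicate block (adjusted p = 0.015). Ccnd1 was lower in untreated Cfp1-/- cells, with 1756 and 2043.5 against 3284 and 3985 normalized counts in WT cells (log2 difference -0.91, SE 0.23, edgeR adjusted p = 0.0152). With doxorubicin Fgf15 had 11.8 and 26.4 in WT and 13.3 and 28 in Cfp1-/- cells (0.11, SE 0.52, edgeR adjusted p = 0.898), and Ccnd1 had 1104 and 1441 against 879 and 527 (-0.83, SE 0.24, edgeR adjusted p = 0.0307). The median of all tested genes on the chromosome was 0.53 higher in untreated and 0.47 higher in treated Cfp1-/- cells.

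Myc, a target of ERK and other pathways, was also named after its values were seen. It had 528 and 376 normalized counts in untreated WT and 117 and 49.0 in untreated Cfp1-/- cells, a log2 difference of -2.42 (SE 0.54, edgeR adjusted p = 0.00779). With doxorubicin it had 316 and 155 in WT and 156 and 59.8 in Cfp1-/- cells (-1.09, SE 0.53, edgeR adjusted p = 0.155, and 0.00409 with the replicate block).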
